A study of Mus musculus with 30 samples.

Results

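The comparison described here is between the terminal ileum of mice that were born germ-free and received a microbiota in week 5 of life, called COL, and the terminal ileum of mice that stayed germ-free, called GF, both sampled at 10 weeks of age. It rests on 6 of the 30 libraries of the series, 3 per group, chosen by their labels alone. Every group was of the strain C3H/HeOuJ, and all libraries used here came from mice with no treatment. The COL mice received the microbiota of specific-pathogen-free (SPF) mice, and an SPF group of 3 ileum libraries at 10 weeks, and GF and COL groups of 3 each at 6 weeks, serve below as points of reference. The series is titled for intestinal macrophages, but these libraries were made from total RNA of whole ileum, so fewer cells of a type and less RNA per cell cannot be told apart. The libraries hold tags from the 3′ ends of polyadenylated RNA (QuantSeq), counted per gene symbol. The labels do not say whether the 3 libraries of a group come from separate mice, so the p-values speak of the variation among libraries, part or all of which may be technical.

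The ileal lining absorbs bile acids and the remaining fat and sugar of a meal while standing against the densest bacterial community of the small intestine. Bacteria that touch it make epithelial cells secrete C-type lectins such as Reg3g and transport IgA into the lumen, and the arrival of bacteria in a germ-free gut is known to be followed by a slower build-up of IgA plasma cells and intraepithelial T cells. T cells and innate lymphocytes that make interferon-gamma act on neighbouring epithelium, and many of the genes they induce carry a palindromic DNA element called the gamma-activated site. The same cytokine switches on Ciita, the co-activator that drives MHC class II genes from a proximal promoter containing an inverted CCAAT box.

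Because the genes of both programs were among the largest differences, the 120 bases before the transcription start are shown for 3 MHC class II genes and 3 interferon-gamma-induced GTPases, from RefSeq on GRCm38.p6, written 5′ to 3′ along the strand of the gene. In the class II promoters, capitals mark each CCAAT box in either orientation, the inverted form (ATTGG) or the forward form (CCAAT). The windows lie at chr17:34287824-34287943 on the minus strand for H2-Aa, and on the plus strand at chr17:34305747-34305866 for H2-Eb1 and at chr17:34153071-34153190 for H2-DMb1.
H2-Aa: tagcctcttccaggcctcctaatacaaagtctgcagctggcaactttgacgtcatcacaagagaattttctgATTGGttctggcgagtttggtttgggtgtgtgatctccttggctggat
H2-Eb1: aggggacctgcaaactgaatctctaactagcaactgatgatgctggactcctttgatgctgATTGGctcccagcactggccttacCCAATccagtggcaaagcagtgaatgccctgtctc
H2-DMb1: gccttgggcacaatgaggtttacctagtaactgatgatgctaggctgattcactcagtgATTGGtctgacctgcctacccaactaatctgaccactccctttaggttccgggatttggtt

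In the promoters of the GTPases, capitals mark gamma-activated sites (TTCNNNGAA, a palindrome read alike on both strands) and interferon-stimulated response element cores (GAAANNGAAA, or TTTCNNTTTC on the other strand). All 3 windows are on the plus strand, at chr11:58214857-58214976 for Irgm2, chr11:58199436-58199555 for Igtp and chr3:142530216-142530335 for Gbp7.
Irgm2: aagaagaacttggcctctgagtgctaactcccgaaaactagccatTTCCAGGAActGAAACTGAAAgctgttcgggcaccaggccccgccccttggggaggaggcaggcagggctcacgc
Igtp: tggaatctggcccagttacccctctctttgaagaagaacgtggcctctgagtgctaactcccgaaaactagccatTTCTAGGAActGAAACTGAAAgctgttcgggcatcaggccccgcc
Gbp7: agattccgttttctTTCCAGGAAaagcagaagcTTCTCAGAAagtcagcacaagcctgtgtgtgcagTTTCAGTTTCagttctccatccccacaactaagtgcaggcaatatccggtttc

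The gamma-activated site and the response element core stand side by side in Irgm2, where their first bases lie 75 and 64 bases before the start, and in Igtp, where they lie 45 and 34 bases before it. Gbp7 holds 2 gamma-activated sites, at 106 and 87 bases, and 1 response element core at 53. The CCAAT boxes begin 48 bases before the start of H2-Aa, 61 before that of H2-DMb1, and 59 and 35 before that of H2-Eb1. The box at 35 in H2-Eb1 is in the forward form, and the others are inverted. Over the 250 bases searched before the start, the gamma-activated site was found in 7.02% and the response element core in 2.98% of 32851 mouse promoters. The CCAAT box, counted in either orientation, was found in 33.8% of them. Of 23 interferon-gamma-response genes that rose in COL, 15 had promoters in the table, 18 promoters in all, of which 7 (38.9%) held the first motif and 10 (55.6%) the second. Of the 8 MHC class II genes that rose, 4 had an entry, and 4 of their 5 promoters held a CCAAT box in either orientation. A match describes letters and not a bound factor. The RefSeq starts of H2-DMb1 and Irgm2 lie inside the spans that GENCODE gives for these genes.

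The 6 libraries held 4593593 to 6416286 reads assigned to genes. Tags carry no molecular identifiers, so the intervals given below cover counting error only. Levels are in CPM, the reads of a gene scaled to a common library size (TMM), and differences are log2 fold changes of COL minus GF with their standard error, from edgeR's quasi-likelihood test fitted over all 18 ileum libraries. Fabp6, the ileal bile acid binding protein, reached 10900 to 21300 CPM in COL and 14600 to 33000 in GF, and the ileal bile acid transporter Slc10a2 reached 240 to 375 and 413 to 490, as the tissue label states, whereas the colon marker Car1 had 25 reads in the 6 libraries. GF library 1 stood apart from GF libraries 2 and 3. Its summed level of 15 follicular B cell genes was 114 CPM, against 6.2 and 10.9 CPM. The COL libraries had 195, 661 and 280 CPM, and GF library 1 at 6 weeks and SPF library 1 at 10 weeks (185 and 1240 CPM) also stood above the others of their groups. For the 10-week comparison, counts without GF library 1 are therefore given beside the immune lists and where its removal moved a count markedly.

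Of 13233 genes tested, 675 (5.10%) were higher and 534 (4.04%) lower in COL at a Benjamini-Hochberg adjusted p under 0.05, together 9.14%. Rises were larger than falls. The genes that rose had a median log2 fold change of 1.75, and 284 of them differed more than 4-fold and 160 more than 8-fold. The genes that fell had a median of -0.89, with 46 and 13 past those folds, and the median over all tested genes was 0.01. The total of 1209 became 919 without GF library 1, 713 without COL library 2, 760 without GF library 3 and 802 without GF library 2. The groups did not overlap, COL above GF, for 15.6% of all tested genes, and COL below GF for 13.5%, which are the shares against which a lack of overlap is to be read. The gene lists used below were chosen with earlier results of these data known. Their shares of called members are therefore descriptions and not tests.

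**Figure D1:**
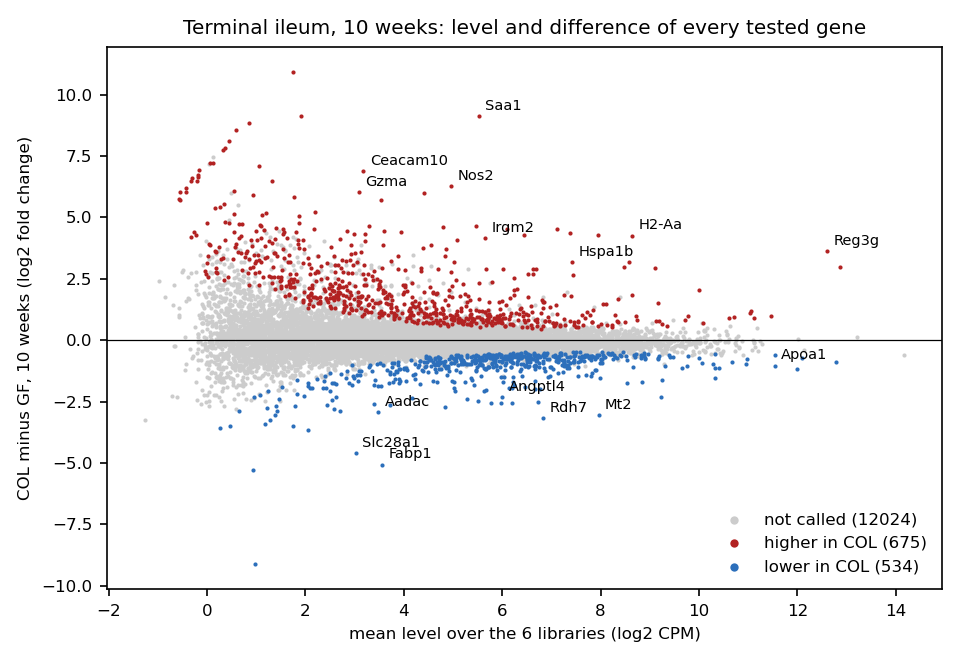
Each point is 1 of 13233 tested genes, with its mean log2 CPM over the 6 libraries on the horizontal axis and the log2 fold change of COL minus GF on the vertical axis. The 675 genes called higher (red) extend much further from 0 than the 534 called lower (blue), and Reg3g stands out as a rise among the most abundant transcripts; the diagonal row of points at the upper left are genes with almost no reads in GF, whose fitted values depend on the prior count.

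The antibacterial program of the epithelium was higher in COL. Of 22 tested genes of a list of transcripts that bacteria induce in epithelium, 13 rose and 2, Reg1 and Reg3a, fell, with a median log2 fold change of 2.20. Without GF library 1 the counts were 11 and 1. Reg1 and Reg3a, both secreted lectins of the Reg family, are named because they were the exceptions, after their values were seen (log2 fold changes of -1.73 and -1.69).

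Saa1, the acute-phase serum amyloid A protein that epithelium makes on contact with bacteria (chr7:46740497-46742980, mm10, GENCODE vM21), gave 574, 924 and 1830 CPM in the COL libraries and 1.23, 1.33 and 3.39 CPM in the GF libraries. The difference was 9.13 ± 1.08 (SE; adjusted p = 0.00017 by edgeR), the largest among genes with enough reads for the naming rule. The groups lay far apart, with COL library 3 the highest, and the GF libraries held few reads. Its near-identical neighbour Saa2 takes reads that cannot be placed, so the split between these copies is uncertain. The paralogue Saa3 gave 10, 9.59 and 22.4 CPM in COL against 1.03, 0.738 and 0.188 in GF (4.39 ± 0.53, adjusted p = 3.2e-06).

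Nos2, the inducible nitric oxide synthase (chr11:78920787-78960254), gave 196, 347 and 258 CPM in COL and 4.31, 2.95 and 3.01 in GF, a difference of 6.29 ± 0.63 (adjusted p = 3.1e-05, edgeR). Reg3g, the lectin that kills Gram-positive bacteria (chr6:78466269-78468872), gave 13000, 30300 and 24400 CPM in COL and 2070, 1630 and 1820 in GF (3.62 ± 0.53, adjusted p = 0.0006). Its sister lectin Reg3b gave 12100, 23200 and 31100 CPM against 2810, 2290 and 3180 (3.0 ± 0.42, adjusted p = 0.00019). COL library 1 was the lowest of its group for all 3 genes, and still above every GF library. Pigr, the receptor that carries IgA across the epithelium, was among the tightest differences, at 2030, 2210 and 2110 CPM in COL against 451, 537 and 531 in GF (2.06 ± 0.20, adjusted p = 9.3e-08).

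The enzymes that make hydrogen peroxide at the epithelial surface need a maturation factor, Duoxa2, which gave 31.9, 73.8 and 43.4 CPM in COL and 2.26, 0.591 and 3.2 in GF (4.67 ± 0.78, adjusted p = 0.0019, edgeR). Its partner, the oxidase Duox2, was read at 3.52, 3.2 and 1.37 CPM in COL against 0, 0.738 and 0.754 in GF, a difference of 2.33 ± 0.92 that did not pass (adjusted p = 0.12). Zbp1, a sensor of unusual nucleic acids that can trigger cell death, gave 23.2, 37.8 and 39.7 CPM against 1.03, 1.77 and 2.07 (4.34 ± 0.53, adjusted p = 3.2e-05). Fut2, the fucosyltransferase that decorates epithelial surface glycans, had 735 reads in COL (11.6, 74.2 and 39 CPM) and none in GF, at least 238-fold higher when GF is set to a floor of 3 reads over the group. The adjusted p of Fut2 was 0.022, and it rose to at most 0.1 where the call was lost, under 7 of 13 alternatives, including the removal of COL library 2 or 3 or of any GF library. Retnlb, a goblet cell product that acts on bacteria, did not pass the test (371, 666 and 900 CPM against 158, 173 and 244; 1.75 ± 0.54, adjusted p = 0.062), though it was called under 5 of 13 alternatives.

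**Figure D2:**
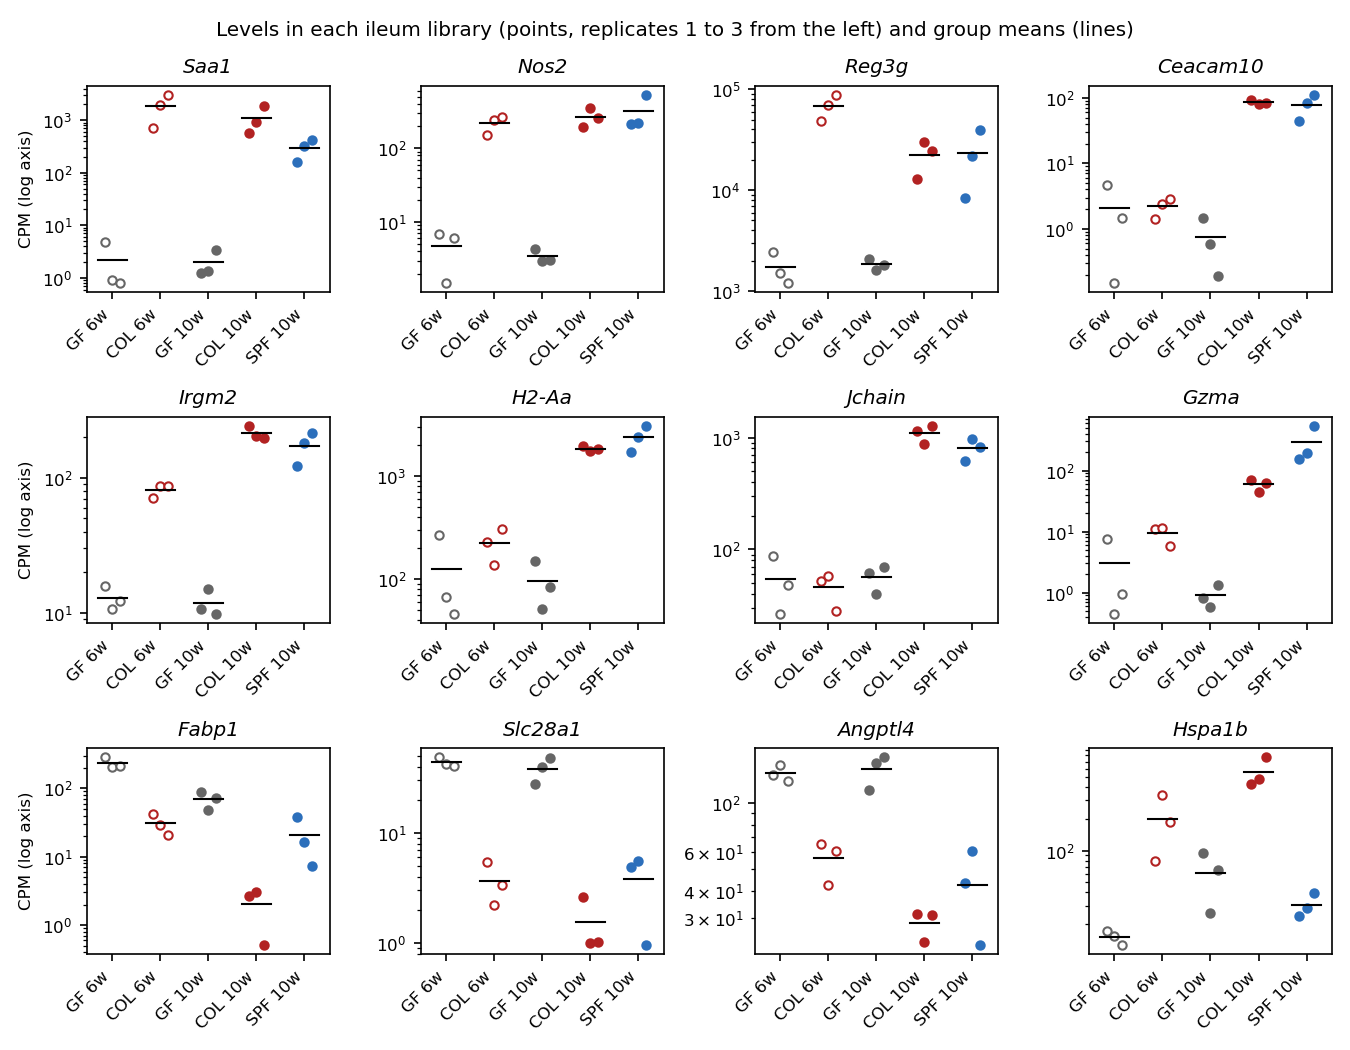
CPM on log axes for 12 genes in each library (points) of the GF and COL groups at 6 and 10 weeks and the SPF group at 10 weeks, with group means as lines. Saa1, Nos2 and Reg3g were already high in COL at 6 weeks, whereas Ceacam10, H2-Aa, Jchain and Gzma were higher in the 10-week than in the 6-week COL libraries. In the test of whether the effect of colonization differed between ages, Ceacam10 and Jchain passed. H2-Aa and Gzma did not (adjusted p = 0.15 and 0.29, edgeR).

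Some genes of the secretory cells of the epithelium were called, to be read against 5.10% called higher and 4.04% called lower among all genes tested. Of 16 Paneth cell genes, 2 rose and none fell (median 0.54), 1 rose without GF library 1, 4 with DESeq2 and 5 in a fit of the 6 libraries alone. The 2 were Pla2g2a, a bactericidal phospholipase (0.91 ± 0.22, adjusted p = 0.0075, 0.055 without the GF libraries numbered 1 at both ages), and Itln1, a lectin (0.70, adjusted p = 0.018), whose call was lost under 4 of 13 alternatives with an adjusted p of up to 0.11, among them without COL library 1 or GF library 1 or 2. The alpha-defensin Defa24 gave 709, 719 and 606 CPM in COL and 424, 383 and 450 in GF (0.69, adjusted p = 0.12; called under 2 of 13 alternatives). Of 19 goblet cell genes, 1 rose and 2 fell (median -0.15), with no rise without GF library 2 and 1 fall without COL library 2 or GF library 3. One that fell was Zg16, a mucus lectin that aggregates bacteria (-0.88 ± 0.20, adjusted p = 0.0051, edgeR). Of 20 glycosyltransferases of the cell surface, 5 rose and 2 fell (median 0.28), and the 5 became 2 on leaving out COL library 2 or 3 or any GF library. B3gnt7, which extends keratan sulfate and related chains, kept its call under every alternative (49.3, 174 and 104 CPM against 8.82, 7.24 and 9.04; 3.71 ± 0.68, adjusted p = 0.0041). COL library 1 was the lowest of its group and still above every GF library.

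Surface proteins of the Ceacam and Ly6 families rose, 7 of 11 and none lower (median 1.79). Ceacam10, a secreted member of the carcinoembryonic antigen family (chr7:24777206-24784657), gave 94.2, 80.2 and 84.7 CPM in COL and 1.44, 0.591 and 0.188 in GF (6.88 ± 0.64, adjusted p = 4.4e-06, edgeR; 7.62 without GF library 1). The COL libraries lay close together, while the GF libraries held few reads. Ly6a, a GPI-anchored surface protein induced by interferon, gave 76.4, 94.4 and 79.2 CPM against 11.3, 19.1 and 19.8 (2.31 ± 0.24, adjusted p = 4e-07). Cd177, known as a neutrophil surface protein, rose by 5.08 ± 0.65 (adjusted p = 8.2e-06), and Ly6e by 2.19.

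The single largest share of any list was that of the interferon-gamma response, in which 23 of 24 tested genes rose, against a background of 5.10%, and none fell (median 2.75). The count was 18 without GF library 1. This list, like the others, was chosen with earlier results of these data known, which can raise its share above the background. Irgm2, an immunity-related GTPase that guards Golgi and vacuole membranes (chr11:58199618-58222782), gave 241, 204 and 198 CPM in COL and 10.7, 15.1 and 9.8 in GF (4.17 ± 0.22, adjusted p = 3e-12, edgeR). Its annotation overlaps that of Igtp, another GTPase of the family (chr11:58199556-58207591), on the same strand, so reads of these genes may be split or lost. Igtp gave 153, 170 and 127 CPM against 3.49, 11.5 and 2.64 (4.61 ± 0.54, adjusted p = 0.0001; 5.59 without GF library 2). Gbp7, a guanylate-binding protein of host defence (chr3:142530342-142550149), gave 96.5, 107 and 76.3 CPM against 10.3, 8.86 and 6.78 (3.43 ± 0.23, adjusted p = 1.1e-10). The lowest COL library was several-fold above the highest GF library for all 3 genes.

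Iigp1, a GTPase that attacks the vacuoles of intracellular parasites, gave 79.6, 83.9 and 67.4 CPM in COL and 5.33, 7.68 and 3.77 in GF (3.76 ± 0.32, adjusted p = 2e-08, edgeR). Cxcl9, a chemokine that draws T cells, gave 19.5, 40.9 and 33.7 CPM against 1.23, 1.77 and 1.13 (4.46 ± 0.43, adjusted p = 1.5e-07). Ubd, a ubiquitin-like modifier, gave 202, 159 and 150 CPM against 5.33, 1.18 and 1.88 (5.99 ± 0.92, adjusted p = 0.0012; 6.79 without GF library 1). Chemokine, GTPase and modifier thus all lay without overlap between the groups. Ifng itself, the cytokine, had 5 reads over the 6 libraries and was not tested. Multigene families such as the Gbp and Irg genes lose reads that align to several places, so single members are uncertain.

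Of 30 genes of the type I interferon response, 13 rose and none fell (median 1.03), a list that shares inducers with the previous one. The count was 9 without GF library 1, 8 without COL library 3 and 7 without GF library 3. Ifit1bl1, of the family of proteins that bind viral RNA, gave 154, 190 and 333 CPM in COL and 7.18, 10.5 and 8.67 in GF (4.67 ± 0.44, adjusted p = 8.2e-06, edgeR). Bst2, which tethers budding viruses, rose by 3.20 and Irf9, the DNA-binding subunit of the type I signalling complex, by 1.00. The median of the list was lower than that of the interferon-gamma list, and this difference was not tested.

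Antigen presentation rose on both arms. For MHC class I and the immunoproteasome, 12 of 19 genes rose and 1 fell (median 1.01), and 9 rose without GF library 1. Psmb9, a catalytic subunit of the immunoproteasome, gave 318, 255 and 237 CPM in COL and 38.7, 34.3 and 35.8 in GF (2.90 ± 0.18, adjusted p = 4.2e-11, edgeR). Psmb8, another such subunit, rose by 2.89 ± 0.20 (adjusted p = 2.3e-10), and the peptide transporter Tap1 by 2.91 ± 0.23 (adjusted p = 3.2e-09). The class I heavy chain H2-K1 rose by 1.68. The member that fell was H2-Q10, a secreted class I heavy chain, at 1.94, 6.9 and 4.1 CPM in COL against 22.6, 29.4 and 26.9 in GF (-2.60 ± 0.32, adjusted p = 3.7e-06).

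For MHC class II, 8 of 13 genes rose and none fell (median 3.86; 3.42 with Ctse, which had no read in GF, at its lower bound), and 8 rose without GF library 1. H2-DMb1, a chain of the molecule that loads peptides (chr17:34153072-34160230), gave 942, 632 and 479 CPM in COL and 41.2, 25.3 and 23 in GF (4.53 ± 0.27, adjusted p = 1.1e-10, edgeR). H2-Aa, the alpha chain of the presenting molecule (chr17:34282744-34287823), gave 1940, 1730 and 1820 CPM against 151, 52.1 and 83.5 (4.26 ± 0.64, adjusted p = 0.0011). H2-Eb1, the beta chain of the second presenting molecule (chr17:34305867-34316674), gave 869, 970 and 1270 CPM against 193, 83 and 119 (2.98 ± 0.49, adjusted p = 0.0018). All 3 genes whose promoters are printed above differed without overlap, which the naming rule required of H2-DMb1. GF library 1 was the highest of its group for each.

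Cd74, the invariant chain that keeps class II molecules free of peptide until loading, gave 395, 392 and 368 CPM in COL and 24, 17.3 and 17.9 in GF (4.29 ± 0.37, adjusted p = 8.1e-07, edgeR). The co-activator Ciita gave 50.9, 50.5 and 47.7 CPM in COL, a narrow range, and 8, 1.03 and 1.7 in GF (3.86 ± 0.66, adjusted p = 0.0018; 5.18 without the GF libraries numbered 1 at both ages). The summed level of the 13 class II genes was 5500, 4920 and 6120 CPM in COL and 1010, 686 and 806 in GF. B cells, macrophages and epithelium can all carry class II. None of the 15 follicular B cell genes was called; their summed level did not overlap between the groups either, at 195 to 661 CPM in COL and 6.2 to 114 in GF, with the marker Cr2 at 0 in GF library 2. Within GF the library with the highest B cell sum, library 1, also had the highest class II sum, at 6 weeks as at 10 weeks (185 and 1500 CPM at 6 weeks), whereas within COL at 10 weeks library 2 had the highest B cell sum and the lowest class II sum. The part of B cells in the class II result was not tested.

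**Figure D3:**
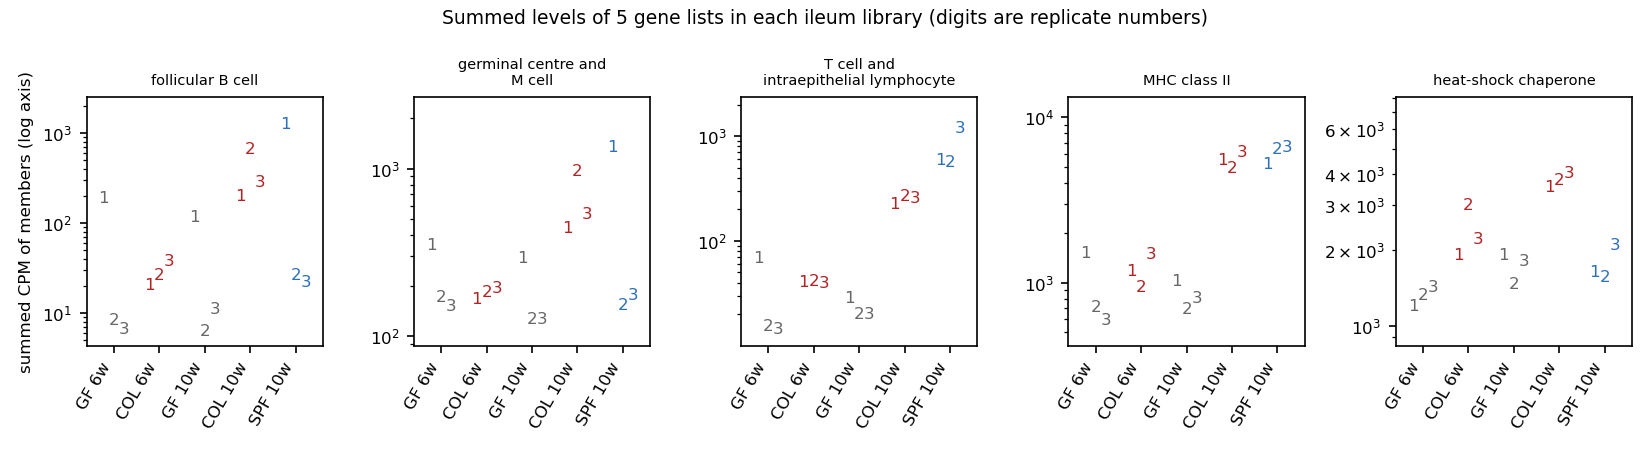
Summed CPM (log axes) of the members of 5 gene lists in every library of 5 ileum groups; each digit is the replicate number of a library. Follicular B cell genes were scattered within groups, with library 1 of GF at both ages far above libraries 2 and 3, whereas the T cell, MHC class II and heat-shock sums of the 10-week COL libraries lay close together and apart from GF.

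Transcripts of lymphocytes and of IgA transport made up the next groups. Of 15 genes of plasma cells and IgA transport, 11 rose and none fell (median 2.58), and 10 rose without GF library 1. Jchain, the protein that joins IgA into dimers (chr5:88519809-88527891), gave 1140, 875 and 1260 CPM in COL and 61.3, 39.9 and 69.2 in GF (4.27 ± 0.39, adjusted p = 3.5e-06, edgeR). Derl3, which clears misfolded protein from the endoplasmic reticulum of secretory cells, gave 38, 44.7 and 32.8 CPM against 2.67, 1.62 and 1.51 (4.32 ± 0.36, adjusted p = 6.8e-09). Mzb1, a chaperone of immunoglobulin in B-lineage cells, gave 311, 405 and 282 CPM against 18.9, 9.01 and 15.3 (4.55 ± 0.64, adjusted p = 0.00065). GF library 1 was within the range of the other GF libraries or slightly above it for these genes, unlike for follicular B cell genes. Tnfrsf17, the plasma cell survival receptor BCMA, rose by 3.54 and the plasma cell regulator Prdm1 by 2.18.

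Follicular and germinal centre genes gave a less even picture. None of 15 follicular B cell genes was called (median 3.16; 1 called without GF library 1, and up to 5 under another alternative). The complement receptor Cr2, chosen as a defining marker of this list after its values were seen, gave 23.4, 58.2 and 36.1 CPM in COL and 12.7, 0 and 1.13 in GF. GF library 1 came closer to the COL libraries than to the other GF libraries on a log scale. Of 13 genes of germinal centres and M cells, the epithelial cells that sample bacteria over lymphoid follicles, 4 rose. Tnfaip2, made by M cells, gave 49.8, 58.4 and 39.3 CPM against 18.5, 12.1 and 6.97 (1.98 ± 0.29, adjusted p = 6.8e-05) and kept its call throughout. The other 3 did not, and the count fell to between 1 and 2 when any single library other than COL library 1 was left out. The summed level of this list was 440, 959 and 531 CPM in COL and 289, 126 and 125 in GF.

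Most T cell genes rose. Of 23 genes of T cells and intraepithelial lymphocytes, 18 rose and none fell (median 3.59). The count was 14 without GF library 1 and 11 without GF library 2. Summed, they reached 222, 267 and 255 CPM in COL and 27.9, 19.9 and 20 in GF. Gzma, a granzyme of cytotoxic lymphocytes (chr13:113093825-113100981), gave 70.9, 45.1 and 63.3 CPM in COL and 0.82, 0.591 and 1.32 in GF (6.04 ± 0.91, adjusted p = 0.001, edgeR). Il2rb, the beta chain of the receptors for interleukin 2 and 15, gave 18, 15.8 and 9.41 CPM against 2.05, 1.18 and 0 (3.73 ± 0.55, adjusted p = 5.2e-05; 4.42 without GF library 1). No GF library came near a COL library in either gene.

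Several T cell genes were nearly absent from GF, and their ratios carry wide intervals. Cd3d, a chain of the T cell receptor complex, had 148 reads in COL and 2 in GF, a ratio of 71.8 with a 95% interval from 19.5 to 598. Cd8a, the co-receptor of cytotoxic T cells, had 60 reads against 1, a ratio of 58.2 (10.1 to 2340), and Gzmb, the granzyme of activated killer cells, 190 reads against 1, a ratio of 184 (32.7 to 7320). Cd5, a T cell surface receptor, had 104 reads in COL and none in GF, at least 33.6-fold higher at the floor of 3 reads over the group. Genes with close copies can lose reads that align to several places, and levels that rest on 1 or 2 reads in GF are uncertain. The adjusted p of these 4 genes was below 0.05 under all 13 alternatives run.

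Macrophage genes rose as well, by smaller folds. Of 22 genes of resident macrophages, 9 rose and none fell (median 1.09), a count of 6 without GF library 1 and of 5 without COL library 2. C1qa, a chain of the complement component that gut macrophages make, gave 66.7, 77.7 and 67.9 CPM in COL and 26, 20.7 and 22.4 in GF (1.62 ± 0.22, adjusted p = 1.8e-05, edgeR). C1qc, another chain, rose by 1.79 ± 0.28 (adjusted p = 0.00012) and Il10ra, the receptor for the anti-inflammatory cytokine IL-10, by 2.56. All of these kept their calls under every alternative. Il10ra was read at 4.22, 6.9 and 3.93 CPM in COL and 0.82, 0.591 and 1.13 in GF. Which cells of the whole ileum carried it was not tested.

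The defining surface receptors of macrophages were lowly read. Adgre1, the F4/80 antigen, gave 4.05, 5.05 and 2.74 CPM in COL and 0.205, 1.03 and 1.13 in GF (2.26 ± 0.59, adjusted p = 0.014, edgeR), and the call was lost on leaving out COL library 2 or GF library 1, with an adjusted p of at most 0.084. Cx3cr1, the fractalkine receptor, gave 15.8, 14.8 and 15.6 CPM against 10.3, 7.09 and 3.2 (1.17 ± 0.32, adjusted p = 0.019), a call lost without COL library 2 or 3 or GF library 2 or 3, with an adjusted p of up to 0.14. Csf1r, the receptor for the growth factor of macrophages, gave 12.3, 24.6 and 21.9 CPM against 9.43, 9.45 and 13.8, and did not pass (0.85 ± 0.29, adjusted p = 0.065; called under 2 of 13 alternatives). Its groups overlapped, with COL library 1 below GF library 3.

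Of 16 monocyte and neutrophil genes, 5 had enough reads to be tested, and 2 of these rose (median 2.03). The neutrophil genes S100a8, S100a9, Ly6g and Mpo had 5, 0, 10 and 0 reads over the 6 libraries and were not tested. The monocyte receptor Ccr2 did not pass (adjusted p = 0.081, edgeR). Ly6c2, a surface protein of inflammatory monocytes that some T cells also carry, gave 50.3, 48.3 and 43.8 CPM in COL and 3.08, 4.43 and 5.46 in GF (3.44 ± 0.28, adjusted p = 4.6e-09, edgeR). Plac8, a small cysteine-rich protein of myeloid and other cells, rose by 0.78. Of 16 cytokines and chemokines, 6 rose (median 1.23), and 3 when COL library 3 or GF library 1 or 2 was left out. Ccl28, the epithelial chemokine that attracts IgA plasma cells, gave 35, 44.9 and 43.4 CPM against 13.9, 13.7 and 14.9 (1.53 ± 0.22, adjusted p = 2.9e-05). Tnf, the inflammatory cytokine, rose by 4.23 ± 0.91 (adjusted p = 0.0031), a value that went from 3.56 without GF library 2 to 7.90 without the GF libraries numbered 1. Mcpt2, a protease of mucosal mast cells, gave 9.15, 20.4 and 5.81 CPM against 0.615, 1.03 and 0.188 (4.17 ± 0.85, adjusted p = 0.0033; 3.50 without COL library 2, 4.81 without GF library 2).

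Of 19 inflammasome and gasdermin genes, 6 rose and none fell. Il18bp, the secreted protein that neutralises IL-18, gave 50.5, 62.9 and 44.8 CPM in COL and 2.87, 2.22 and 2.26 in GF (4.43 ± 0.49, adjusted p = 1.7e-05, edgeR). Il18 itself, a cytokine stored in epithelium, gave 37, 108 and 53.5 CPM against 35.1, 42.4 and 35.4 and did not pass (0.81 ± 0.43, adjusted p = 0.31). The groups were far apart for the binding protein and overlapped for the cytokine, whose highest value was in COL library 2. Gsdmc2, of the epithelial branch of the pore-forming gasdermins, gave 68.3, 58.2 and 40.4 CPM against 9.23, 9.6 and 4.33 (2.84 ± 0.46), and its paralogue Gsdmc3 rose by 4.41 ± 0.59 (adjusted p = 1.6e-05; 5.17 without GF library 2).

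Among the 15 largest rises were 2 genes of no list. Barx2, a homeobox transcription factor, gave 73.4, 45.7 and 107 CPM in COL and 1.85, 5.91 and 2.26 in GF (4.42 ± 0.42, adjusted p = 1.5e-06, edgeR; 5.16 without GF library 2). Plet1, a surface protein of epithelial cells, gave 42.8, 120 and 92.5 CPM against 0.82, 2.66 and 1.13 (5.70 ± 1.14, adjusted p = 0.0073; 6.39 without GF library 2), and its adjusted p was 0.05 without the GF libraries numbered 1 at both ages.

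Genes of lipid handling were lower in COL. Of 27 genes of fatty acid oxidation under the nuclear receptor PPAR-alpha, 12 fell, against a background of 4.04%, and none rose (median -0.61), and 12 fell without GF library 1. Fabp1, the fatty acid binding protein shared by liver and intestine (chr6:71199827-71205023), gave 2.64, 3.03 and 0.513 CPM in COL and 88.4, 47.7 and 72.4 in GF (-5.06 ± 0.57, adjusted p = 6.1e-05, edgeR). Angptl4, a secreted inhibitor of lipoprotein lipase that is known to be repressed by the microbiota, gave 31.3, 23.4 and 31.1 CPM against 115, 152 and 162 (-2.32 ± 0.24, adjusted p = 4e-07). The receptor Ppara itself gave 117, 64.9 and 52.7 CPM against 196, 197 and 249 (-1.45 ± 0.25, adjusted p = 0.00051). The groups lay apart for each of these genes, which the naming rule required of Fabp1 and Angptl4. COL library 1 was the highest of its group for the receptor.

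Acaa1b, a peroxisomal thiolase, fell by 2.05 and Pdk4, the kinase that holds back glucose oxidation, by 1.82 on the log2 scale. Cyp4a10, a fatty acid hydroxylase named after its values were seen, had no read in COL and 198 in GF, at least 68-fold lower, although this family has near-identical copies. Of 23 genes of fat absorption and chylomicrons, 5 fell and none rose (median -0.22), 3 without COL library 2. Fabp2, the intestinal fatty acid binding protein, gave 2360, 2010 and 4070 CPM in COL and 5290, 7500 and 5980 in GF (-1.15 ± 0.23, adjusted p = 0.0016, edgeR). Apoa1, the main protein of HDL, gave 2150, 1740 and 2390 CPM against 4310, 4660 and 3860 (-1.03 ± 0.21, adjusted p = 0.0024). Both remained abundant in COL.

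Of 28 genes of sterol synthesis and transport, 8 fell and none rose (median -0.39), with 3 on leaving out COL library 2 and 5 on leaving out GF library 2. Dhcr7, which catalyses the final step of cholesterol synthesis, fell by 1.15 on the log2 scale (SE 0.18, adjusted p = 9.7e-05, edgeR). Among 11 bile acid genes, 2 rose and 1 fell, and the rises numbered 1 without GF library 1, 2 or 3 or COL library 2 or 3 and 0 without COL library 1. The one that fell was Abcc2, an apical export pump, at 35.7, 18.7 and 23.1 CPM against 92.3, 107 and 115 (-2.02 ± 0.39, adjusted p = 0.0033), and the basolateral pump Abcc3 rose by 0.67 (adjusted p = 0.0089), a call lost, at up to 0.06, without COL library 1 or without the GF libraries numbered 1. Fabp6 and Slc10a2, whose values are given above, did not pass (-0.60, adjusted p = 0.24, and -0.60, adjusted p = 0.056), the latter being called under 5 of 13 alternatives. Fgf15, the ileal hormone that bile acids induce, gave 10.4, 5.05 and 0 CPM in COL and 0, 1.48 and 0 in GF, too few and too scattered to pass (adjusted p = 0.26).

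Genes of foreign compound metabolism were lower on balance. Of 30, 10 fell and 2 rose (median -0.30). Cyp2j6, a cytochrome P450 of the small intestine, gave 44.9, 45.6 and 64.3 CPM in COL and 192, 173 and 246 in GF (-1.98 ± 0.20, adjusted p = 1.5e-07, edgeR). Abcb1a, the P-glycoprotein that pumps drugs back into the lumen, gave 193, 164 and 253 CPM against 645, 691 and 710 (-1.74 ± 0.25, adjusted p = 8.3e-05). Cyp2d26, another cytochrome P450, gave 66.9, 30.9 and 37.8 CPM against 249, 271 and 259 (-2.52 ± 0.29, adjusted p = 8.9e-06). Ces2a, a carboxylesterase, moved the other way, at 215, 135 and 256 CPM against 66.4, 56.7 and 69.2 (1.66 ± 0.28, adjusted p = 0.00065). The pump and the oxidases thus fell while this hydrolase rose, each without overlap, which the naming rule required of Cyp2d26.

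Nucleoside handling moved in both directions, with 4 of 15 genes higher and 2 lower. Slc28a1, which takes up pyrimidine nucleosides from the lumen (chr7:81114799-81170416), gave 2.64, 1.01 and 1.03 CPM in COL and 27.7, 39.6 and 48 in GF (-4.61 ± 0.59, adjusted p = 6.1e-05, edgeR; -5.23 without COL library 1). Cda, which deaminates cytidine to uridine, gave 75.2, 49.8 and 42.2 CPM against 210, 216 and 228 (-1.97 ± 0.21, adjusted p = 7.3e-07). Upp1, which splits uridine into uracil and sugar phosphate, rose to 1140, 1350 and 983 CPM from 124, 122 and 134 (3.19 ± 0.26, adjusted p = 1.7e-08). Xdh, which oxidises purines to uric acid, rose by 1.43, and Nt5e, which makes adenosine outside the cell, by 1.91. The groups did not overlap for the transporter, the deaminase or Upp1.

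Other transport genes fell more often than they rose. Of 20 genes of ion and water transport, 6 fell and 1 rose (median -0.32). Guca2b, the prohormone of uroguanylin that drives chloride and water secretion, gave 338, 309 and 397 CPM in COL and 947, 1170 and 1060 in GF (-1.60 ± 0.22, adjusted p = 2.1e-05, edgeR). Guca2a, its guanylin counterpart, fell by 1.13, and the chloride channel Cftr by 0.93. Of 24 genes of sugar transport and digestion, 4 fell and none rose (median -0.43), between 2 without COL library 2 and 7 without COL library 1, with 6 without GF library 1. Slc5a4b, of the sodium-glucose transporter family, gave 29.4, 15 and 14.5 CPM against 118, 99 and 111 (-2.48 ± 0.37, adjusted p = 0.0004). Of 21 amino acid transport genes, 4 rose and 5 fell. The 4 became 0 without GF library 2 or 3 and 2 without GF library 1, and the 5 became 2 or 3 without any single library other than COL library 1. The peptide transporter Slc15a1, which fell by 0.77 (adjusted p = 0.0031), kept its call throughout.

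Of 18 metal genes, 2 rose and 2 fell, with 1 rise without any single GF library and 1 rise and 1 fall without COL library 1 or 3. Mt1, a metal-buffering metallothionein, gave 266, 322 and 227 CPM in COL and 1210, 1660 and 1180 in GF (-2.32 ± 0.45, adjusted p = 0.0049, edgeR), and its paralogue Mt2 gave 73.6, 118 and 76.1 CPM against 651, 975 and 570 (-3.04 ± 0.69, adjusted p = 0.015, up to 0.063 without COL library 1 or 3). Slc40a1, the iron exporter ferroportin, gave 24.5, 61.7 and 38.8 CPM against 8.2, 5.46 and 3.2 (2.90 ± 0.59, adjusted p = 0.0071). Further falls among the 15 largest were Rdh7, a retinol dehydrogenase (58.6, 25.9 and 32.7 CPM against 330, 335 and 379; -3.16 ± 0.36, adjusted p = 2.4e-05), Aadac, an esterase of the endoplasmic reticulum (3.7, 3.03 and 4.96 CPM against 27.7, 31.9 and 29; -2.92 ± 0.31), and Tm4sf4, a membrane protein of the tetraspanin-like family (30.3, 21 and 27.7 CPM against 117, 192 and 151; -2.54 ± 0.20, adjusted p = 3.2e-09). None of 26 respiratory chain subunits was called (median -0.07).

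**Figure D4:**
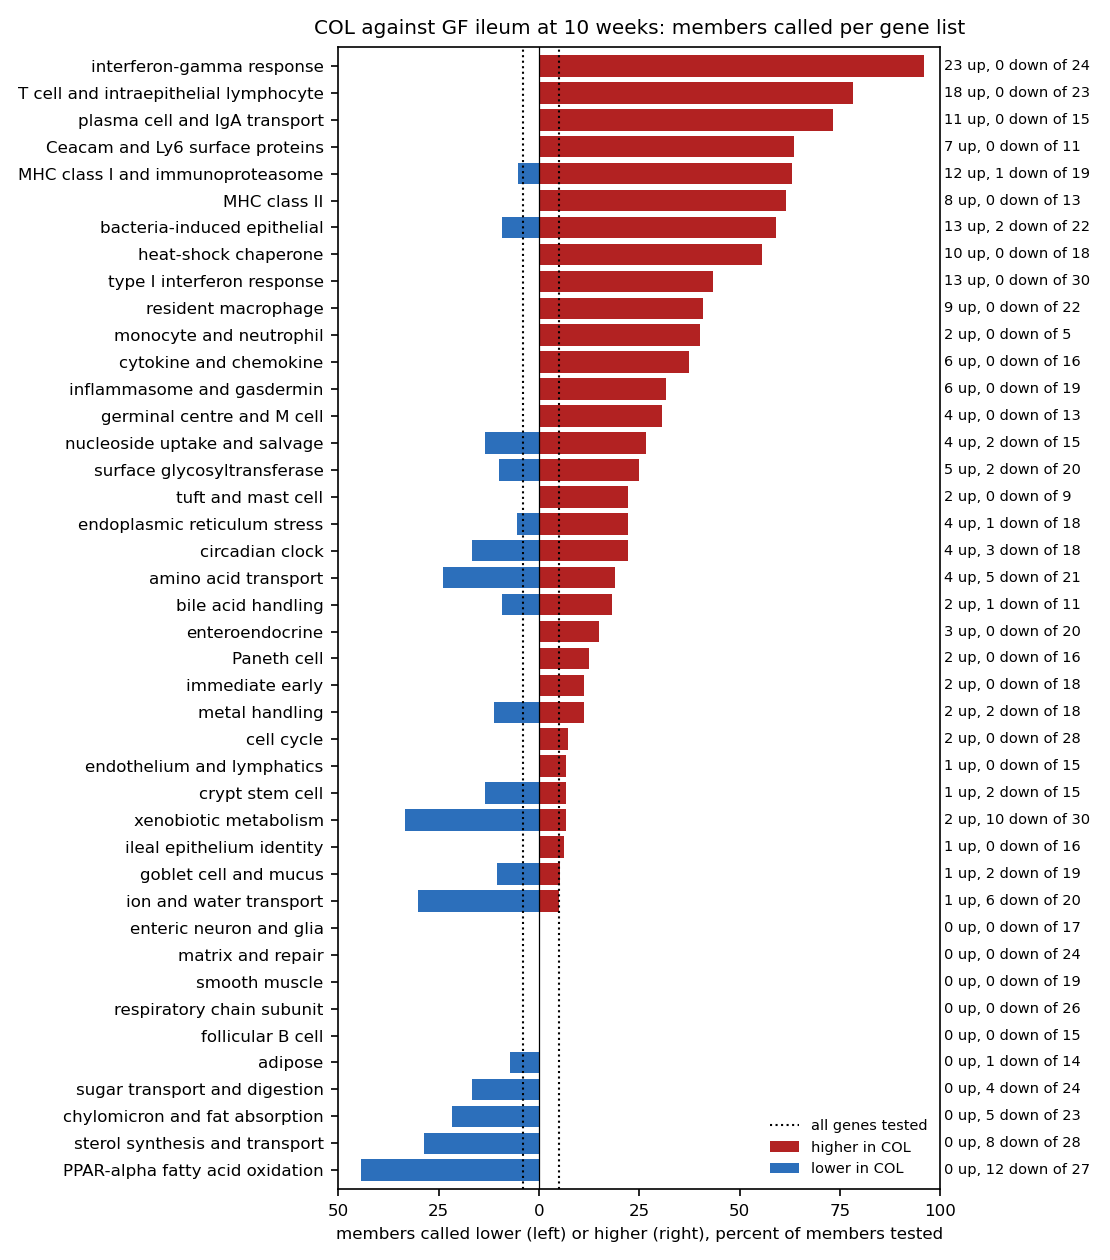
For each gene list with at least 5 members tested, bars give the percent of tested members called higher (right, red) and lower (left, blue) in COL, with the same percentages over all 13233 tested genes as dotted lines (5.10 and 4.04). The lists of interferon-gamma, of T cells, and of plasma cells and IgA transport stand at the top, with 23 of 24, 18 of 23 and 11 of 15 members called higher. The PPAR-alpha list stands at the bottom, with 12 of 27 called lower. The lists were chosen with earlier results of these data known, so the shares are descriptions and not tests.

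Heat-shock chaperones were higher in COL than in GF, 10 of 18 and none lower (median 0.85; 6 without COL library 2 and 5 without GF library 2). Hspa1b, an inducible member of the Hsp70 family (chr17:34956436-34959238), gave 428, 476 and 767 CPM in COL and 94.3, 25.4 and 65.6 in GF (3.18 ± 0.54, adjusted p = 0.0023, edgeR), with the reservation that it is nearly identical to Hspa1a. Hsp90aa1, the inducible cytosolic Hsp90, gave 166, 186 and 236 CPM against 66.4, 58.6 and 75.6 (1.55 ± 0.20, adjusted p = 6.3e-06). Hsph1, an exchange factor of Hsp70, gave 347, 289 and 251 CPM against 102, 47.3 and 99.9 (1.84 ± 0.32, adjusted p = 0.0014). Of 18 genes of endoplasmic reticulum stress, 4 rose and 1 fell, and 7 rose with DESeq2. They included the lumenal chaperone Hspa5 at 2260, 2450 and 2310 CPM against 1350, 975 and 1290 (0.96, adjusted p = 0.0011), and Herpud1, of the degradation machinery (1.01 ± 0.17, adjusted p = 0.00021). Chaperone levels can move with tissue handling as well as with the state of the tissue, and the labels give no record of handling by group; of 18 immediate early genes, 2 rose, Zfp36 by 1.21 and Jun by 1.08, and 5 without COL library 1 or GF library 1. Their part in the result was not tested.

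Against SPF ileum of the same age, which shares the COL libraries with the comparison above, 12 of 13233 genes (0.0907%) were called, 9 (0.0680%) higher and 3 lower in COL, with 1055 at an unadjusted p under 0.05. The count was 97 without SPF library 1, 5 without COL library 2 or 3, 7 without SPF library 2, and 47 with DESeq2. Of these 12 genes, 5 encode chaperones or their helpers, a grouping wider than the heat-shock chaperone list. Of the 18 tested members of that list, 3 were called higher in COL than in SPF and none lower. Hspa1b was at 24.1, 28.7 and 39.4 CPM in SPF, 4.21 ± 0.58 below COL on the log2 scale (adjusted p = 0.019, edgeR; up to 0.093 where the call was lost, under 4 of 12 alternatives, including the removal of COL library 3 or SPF library 2 or 3). Hsp90aa1 was at 99.1, 75.3 and 74.4 CPM in SPF, 1.24 ± 0.19 below COL (adjusted p = 0.0072), a call lost only when the fit was limited to the 6 libraries, with or without a block, at an adjusted p of up to 0.31. Ahsa2, a co-chaperone gene of Hsp90, gave 60, 62.7 and 66.7 CPM in COL and 24.8, 22.2 and 24 in SPF (1.42 ± 0.19, adjusted p = 0.00068; 0.15 in the blocked fit of the 6 libraries). The summed chaperone level was 3540 to 4010 CPM in COL, 1550 to 2070 in SPF and 1460 to 1900 in GF, so COL exceeded both other groups.

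Dnaja1 and Stip1, co-chaperones of Hsp70 and Hsp90, were higher in COL than in SPF by 1.01 and 1.14, and Cacybp, an adaptor of a ubiquitin ligase, by 0.86. Each call was lost under 7 of 12 alternatives, with adjusted p-values up to 0.55, 0.55 and 0.77. Among these were the removal of COL library 2 or 3 or SPF library 2 for all 3 genes, of COL library 1 for Dnaja1, and of SPF library 3 for Stip1 and Cacybp. Efna2, a ligand of Eph receptors, gave 14.8, 11.6 and 7.01 CPM in COL and 1.86, 2.6 and 2.4 in SPF (2.30 higher; lost without COL library 1, adjusted p up to 0.55), while GF had 9.84, 10.9 and 13.4 CPM, a level like that of COL. Tnc, a matrix protein, and Banp, a DNA-binding protein, were higher by 1.61 and 1.36, with adjusted p-values up to 0.55 and 0.30 where the calls were lost, under 7 and 5 of 12 alternatives. Both were lost without COL library 1 or SPF library 3, Tnc also without COL library 3 or SPF library 2, and Banp also without COL library 2.

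For the 3 genes lower in COL than in SPF, the mean of the GF libraries was higher still. Tm4sf4 was at 64.1, 55.1 and 61.5 CPM in SPF (COL lower, -1.19, adjusted p = 0.011, edgeR; up to 0.31 under the 3 of 12 alternatives that lost it, among them without COL library 2). Fabp1 was at 38.1, 16.4 and 7.2 CPM in SPF (-3.41, adjusted p = 0.047; lost without any one COL library or SPF library 2, up to 0.40). Aldh1a7, an aldehyde dehydrogenase, gave 26.6, 30.4 and 28.2 CPM in COL, 43.9, 60.5 and 57.6 in SPF and 75.2, 70.9 and 55.8 in GF (-0.92 against SPF, lost under 8 of 12 alternatives, including the removal of any single COL library or SPF library 2 or 3, up to 0.75). No other gene named above was called between COL and SPF. For T cell genes the summed levels were 222 to 267 CPM in COL and 564 to 1170 in SPF, without overlap, and none of the 23 genes was called. A p that misses the threshold does not show that the groups were alike.

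At 6 weeks, 368 genes (2.78%) were higher and 246 (1.86%) lower in COL than in GF, in libraries that the 10-week comparison does not use. The total of 614 (4.64%) fell to 311 and 381 without GF library 2 or 3 and to 331 and 324 without COL library 2 or 3 of that age. Of the 675 genes higher at 10 weeks, 188 were also called higher at 6 weeks, 27.9% of the 10-week list and 51.1% of the 6-week list. Of the 534 lower at 10 weeks, 161 were also called lower at 6 weeks, 30.1% and 65.4% of these lists, and 1 gene was called in opposite directions. The 6-week fold change had the same sign for 78.7% of the genes that rose and 90.6% of those that fell at 10 weeks, with a median of 0.55 and -0.47, and the fold changes at the 2 ages had r = 0.30 across all tested genes, whose values depend on each other.

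**Figure D5:**
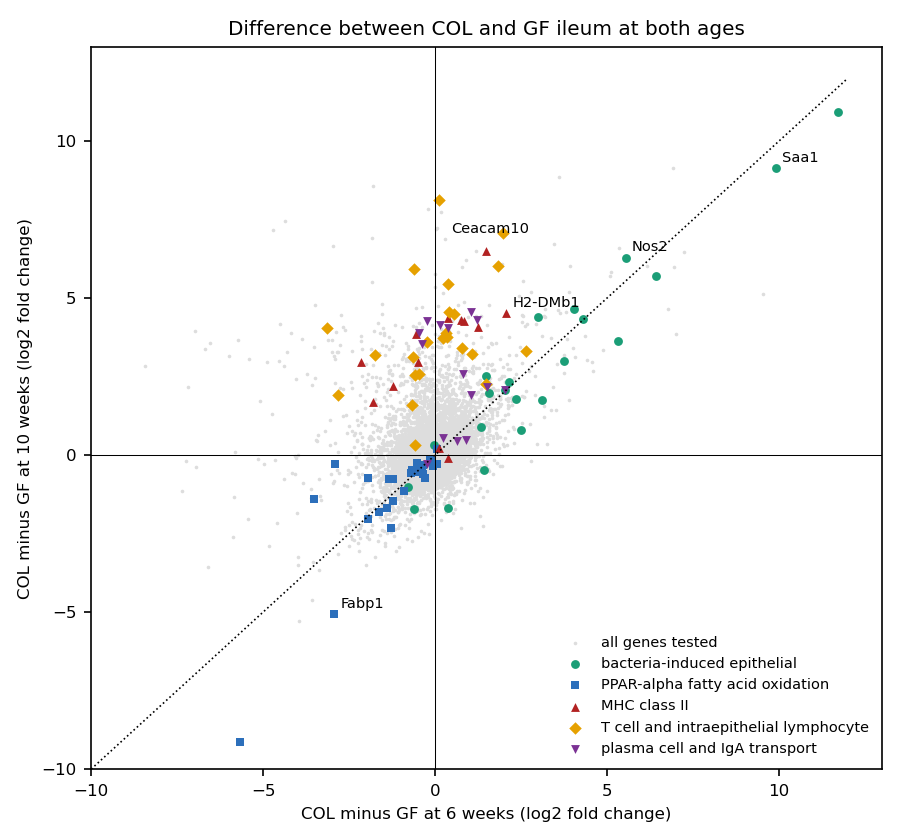
Log2 fold change of COL minus GF at 6 weeks (horizontal) and 10 weeks (vertical) for all tested genes (grey) and 5 gene lists (symbols), with equal values on the dotted line; fitted values of genes with almost no reads in a group depend on the prior count. Bacteria-induced epithelial and PPAR-alpha genes lie near the dotted line, whereas most genes of MHC class II, of T cells, and of plasma cells and IgA transport lie above it. The medians of the MHC class II, T cell, and plasma cell and IgA lists were 0.37, 0.22 and 0.65 at 6 weeks. At 10 weeks they were 3.86, 3.59 and 2.58. The 6-week medians include GF library 1 of that age, whose T cell and class II sums were the highest of its group.

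The lists differed in how they stood at 6 weeks. Of the bacteria-induced epithelial genes, 15 of 22 were already called higher then (median 2.43, against 2.20 at 10 weeks). Reg3g gave 49100, 69800 and 87200 CPM in COL at 6 weeks, above the 10-week COL libraries, and Saa1 gave 707, 1990 and 2970 CPM. Of the 27 PPAR-alpha genes, 12 were called lower at 6 weeks, the same number as at 10 weeks. The interferon-gamma list had 12 of 24 called higher at 6 weeks and 23 at 10 weeks. MHC class II had 1 of 13 at 6 weeks and 8 at 10 weeks, and genes of plasma cells and IgA transport 3 and 11 of 15. The epithelial IgA receptor Pigr was already at 1810, 1490 and 2010 CPM in COL at 6 weeks, against 437, 422 and 437 in GF. Of the T cell genes, none of 23 was called at 6 weeks, when their summed level was 40.2, 41.2 and 38.8 CPM in COL and 67.2, 15.3 and 14.3 in GF. The COL libraries thus lay below GF library 1 of that age and above GF libraries 2 and 3. For class II the sums at 6 weeks were 1170, 938 and 1480 CPM in COL and 1500, 710 and 593 in GF. List counts at 6 weeks without GF library 1 were not run, so those of the immune lists rest on a group that holds it. Whether the counts differ between ages was tested gene by gene only.

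The test of the difference itself, the effect of colonization at 10 weeks minus that at 6 weeks, called 19 genes (0.144%), 17 (0.128%) with the larger effect at 10 weeks and 2 with the smaller, with 1373 at an unadjusted p under 0.05. The count was 29 without COL library 1 at 10 weeks, 31 without GF library 3 at 6 weeks and 154 with DESeq2. Jchain was at 52.6, 58.2 and 28 CPM in COL and 88.2, 26.5 and 47.9 in GF at 6 weeks, overlapping, so the effect differed by 4.50 ± 0.52 (adjusted p = 0.001, edgeR). Cd74 was at 50.5, 36.3 and 48.2 CPM against 48.6, 17.7 and 14.8 at 6 weeks (3.53 ± 0.48, adjusted p = 0.0028), and H2-DMb1 at 130, 108 and 159 CPM against 38.4, 24.3 and 32.2 (2.45 ± 0.35, adjusted p = 0.0013). Ly6c2 was at 2.44, 1.55 and 2.12 CPM against 2.76, 0.894 and 2.14 (3.32 ± 0.47, adjusted p = 0.001). Ceacam10 stood at 1.42, 2.43 and 2.88 CPM in COL at 6 weeks, like the GF libraries (4.67, 0.149 and 1.47), and differed by 6.60 ± 1.00 (adjusted p = 0.0081). For these 5 genes the COL level at 6 weeks was far below that at 10 weeks, and for all but H2-DMb1 it overlapped GF.

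The homing molecules Selplg, the ligand of P-selectin, and Itgb7, the beta chain of the integrin that directs lymphocytes to the gut, were in the same group. Selplg gave 25.5, 24.7 and 25.8 CPM in COL and 4.51, 2.07 and 2.64 in GF at 10 weeks, and 3.04, 3.76 and 4.7 against 12.1, 5.66 and 3.6 at 6 weeks (difference of effects 3.90 ± 0.55, adjusted p = 0.001, edgeR). Itgb7 gave 16.7, 12.8 and 7.87 CPM against 0.82, 0.443 and 0.942 at 10 weeks, and 1.22, 2.21 and 0.758 against 2.97, 1.19 and 1.33 at 6 weeks (4.46 ± 0.72, adjusted p = 0.0028). Its partner chain Itga4 differed by 2.72 ± 0.57 (adjusted p = 0.048), a call lost under 11 of 19 alternatives at up to 0.23, including the removal of any single library except COL library 1 at 10 weeks and GF library 3 at 6 weeks. Psmb9, Gbp7 and Irgm2 differed without overlap at both ages and more at 10 weeks, by 1.48 ± 0.24, 1.89 ± 0.31 and 1.5 ± 0.29 (adjusted p = 0.0028, 0.0028 and 0.023), of which the last was lost under 7 of 19 alternatives at up to 0.22. For Irgm2 these were the removal of COL library 1 or GF library 1 or 3 at 10 weeks, of COL library 1 or 3 or GF library 1 at 6 weeks, or of both GF libraries numbered 1. None of the 23 T cell genes was called in this test.

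In the other direction, Sgk1, a kinase that stimulates sodium uptake, was lower in COL at 10 weeks (75.3, 77.5 and 65.7 CPM against 240, 175 and 204) but not at 6 weeks (143, 151 and 141 against 147, 156 and 172), a difference of effects of -1.38 ± 0.22 (adjusted p = 0.0028, edgeR). Hook2, a microtubule adaptor, gave 54.4, 50.8 and 57.5 CPM against 95.1, 100 and 116 at 10 weeks, and 88.3, 87.4 and 87.9 against 68.3, 80.9 and 73.2 at 6 weeks (-1.18 ± 0.21, adjusted p = 0.0073). The 6-week difference in Hook2 was 0.24 ± 0.15 and did not pass (adjusted p = 0.42).

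The germ-free reference was also compared between the ages, and few genes were called. Between GF at 10 and at 6 weeks, no gene rose and 4 of 13233 (0.0302%) fell, with 503 at an unadjusted p under 0.05, and all 4 belong to the PPAR-alpha list. Acaa1b went from 163, 184 and 230 CPM at 6 weeks to 74.6, 62.2 and 66.5 at 10 weeks (-1.51, adjusted p = 0.017, edgeR). Acot1, an acyl-CoA thioesterase, fell by 1.81 and Pdk4 by 1.65 on the log2 scale. The count was at most 1 when any of the 6 GF libraries was left out. The PPAR-alpha genes of the 10-week comparison were thus measured against a GF level that was itself lower than at 6 weeks for these 4.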

How the data were processed

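Whole-tissue RNA was isolated with Qiazol and turned into 3′ tag libraries with a QuantSeq kit for Ion Torrent, per the labels' protocols. The deposited values are raw counts of reads per gene symbol, made by the authors with Trimmomatic 0.36, FastQC 0.11.5, STAR 2.5.3a and HTSeq on mm10, per the submitters' processing notes; the HTSeq version, strand setting and annotation are not given in the sources used here. Lines that name no gene were left out: reads assigned to genes were 47.9 to 50.7% of those listed in the 6 libraries compared, and reads aligned to several places, which were not counted, 28 to 31.5%.

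All 18 ileum libraries (6 groups of 3, 2233837 to 9088573 counts) were fitted together with edgeR 4.0.16 in R 4.3.3 (TMM scaling, filterByExpr, robust quasi-likelihood test), which left 13233 of 24746 symbols and a common biological coefficient of variation of 0.234. A gene was called where its p, adjusted after Benjamini and Hochberg, was under 0.05. The SE is the log2 fold change over the square root of F, and log CPM used a prior count of 2. For genes with at most 3 reads in a group, ratios of summed reads carry exact binomial 95% intervals, and a group without reads was set to a floor of 3. The code was tested on simulated data. Replicates of a group differed by more than sampling noise (chi-square per degree of freedom 9.57 to 27.6).

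The members and the 44 gene lists (912 genes, 903 in the files) were chosen with earlier results of these data known. Named genes are the 15 largest rises and falls among called genes whose groups did not overlap and whose mean log2 CPM reached 3, the 5 members of each list ranked first by p, fixed genes, and for the other comparisons the genes called; not all are printed. Alternatives were no filter, DESeq2 size factors, DESeq2 1.42.0, a fit of the compared libraries alone, a block by replicate number, and leaving out each library or the GF libraries numbered 1. Locations are from GENCODE vM21, where 24160 symbols matched, and promoters from RefSeq on GRCm38.p6. Results for some genes that meet the naming rule are not reported here.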

Additional observations from a re-analysis of the deposited data

Results flagged for a closer look

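For 19 genes the effect of colonization differed between 10 and 6 weeks by the test of the difference itself, which is what drew attention to them. Given as the effect at 10 weeks minus that at 6 weeks on the log2 scale, the values were 3.32 for Ly6c2, 3.90 for Selplg, 4.50 for Jchain, 2.45 for H2-DMb1, 3.53 for Cd74, -1.38 for Sgk1, 1.48 for Psmb9, 4.46 for Itgb7, 1.89 for Gbp7, -1.18 for Hook2, 6.60 for Ceacam10 and 1.5 for Irgm2, whose levels are in the text above. Jdp2, a repressor of the AP-1 family, differed by 3.03, and Derl3, of plasma cells, by 3.11. Pla2g16, a phospholipase, differed by 1.79, with 160, 139 and 174 CPM in COL and 34.6, 55.2 and 23.9 in GF at 10 weeks. Cytip, a regulator of leukocyte adhesion, differed by 2.48. It was lower in COL at 6 weeks (7.51, 5.97 and 7.88 CPM against 24.6, 21.6 and 23.2) while the difference at 10 weeks did not pass (0.79 ± 0.31, adjusted p = 0.12, edgeR). Cmah, which makes a sialic acid variant, differed by 3.85, the class I chain H2-K1 by 1.24 and the integrin chain Itga4 by 2.72. The calls of Cmah, Cytip, H2-K1, Irgm2 and Itga4 were lost under 9, 4, 12, 7 and 11 of 19 alternatives, and those of the other 14 under none. No explanation of these differences was tested.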

How the results depend on the processing

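Across the alternatives, the count of genes called in COL against GF at 10 weeks ranged from 713 to 1225 when single libraries were left out, and was 1554 with DESeq2, 1544 in a fit of the 6 libraries, 1159 without a filter and 1208 with DESeq2 size factors. Of 187 named genes called, 142 were called under every alternative run for them and 45 were lost under at least 1; of the named genes not called, 21 were gained under at least 1. Same-numbered COL and GF libraries did not deviate together (r = 0.016, -0.04 and -0.035), which with 3 libraries per group cannot exclude a pairing. Same-numbered GF libraries of 10 and 6 weeks gave r = 0.23, 0.24 and 0.012, and differently numbered ones -0.26 to 0.099. With a replicate block the count was 1234 over 18 libraries and 1487 over 6. Leaving out 1 library gave 311 to 751 genes for the 6-week comparison, 5 to 97 for COL against SPF, 15 to 31 for the difference between ages and 0 to 1 for the germ-free ages. For the difference between ages the count was 50 without a filter, 154 with DESeq2, 129 in a fit of the compared libraries, and 29 and 103 with the replicate block over all and over the compared libraries. For COL against SPF it was 47 with DESeq2, 4 in a fit of the compared libraries, and 6 and 5 with the block. For the germ-free ages it was 10 with DESeq2, 8 with the block over the compared libraries and 0 without the GF libraries numbered 1. At 6 weeks it was 951 with the block over the compared libraries and 389 without those GF libraries. The causes were not tested.

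Uncalled values changed sign in Apoa4, which ranged from -0.20 without GF library 1 to 0.02 without COL library 3 (0.01 without GF library 2), in Efna2, from -0.31 without COL library 1 to 0.20 without COL library 3 (0.08 without GF library 3), and in Cidec, from -0.88 without GF library 1 to 0.26 without GF library 2. Depth limits statements on transcripts at a few CPM, such as most T cell and macrophage receptor genes, and a gene with few reads in GF has a poorly determined fold change.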

Other observations

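Clock genes differed between COL and GF at 10 weeks. Of 18, 4 rose and 3 fell, with 1 rising when COL library 3 or GF library 2 was left out and 2 without GF library 3. The falls numbered 1 without GF library 1 or 3 or COL library 2, and 5 with DESeq2. Nfil3, a repressor that acts on clock outputs and in epithelial lipid uptake, gave 40.3, 28.4 and 36.1 CPM in COL and 9.43, 6.2 and 6.22 in GF (2.27 ± 0.36, adjusted p = 0.00024, edgeR). Tef, an activator that binds the same DNA element, gave 37.8, 15.6 and 16.2 CPM against 59, 51.5 and 62 (-1.31 ± 0.29, adjusted p = 0.0041). Dbp, of the same family, gave 2.82, 2.86 and 3.93 CPM against 15.8, 8.42 and 8.86 (-1.77 ± 0.54, adjusted p = 0.038), a call lost under 6 of 13 alternatives at up to 0.17, among them without any single COL library or GF library 1 or 3. The groups did not overlap for any of these genes. The labels give no hour of sampling, so time of day and colonization cannot be told apart for them.

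Endocrine and crypt genes differed in single members. Of 20 enteroendocrine genes, 3 rose and none fell. Tac1, the precursor of substance P in endocrine cells and nerves, gave 48.2, 114 and 86.5 CPM in COL and 13.5, 10.3 and 11.9 in GF (2.80 ± 0.59, adjusted p = 0.0096, edgeR), and Insl5, a hormone known from the colon, had 66 reads in COL and 1 in GF, a ratio of 64 (95% interval 11.1 to 2570). Slc6a14, an amino acid transporter, had 797 reads against 1, a ratio of 773 (138 to 30600), with an adjusted p of 0.011 that rose to 0.076 without GF library 2 or 3 or the GF libraries numbered 1. Of 15 crypt stem cell genes, 1 rose and 2 fell. The falls numbered 0 without GF library 1 or COL library 2 and 1 without GF library 2, and the rise was lost without COL library 1 or 2 or GF library 2 or 3. Of 28 cell cycle genes, 2 rose (median 0.32), 1 without COL library 2 or 3 and 0 without any single GF library. None of 19 smooth muscle, 24 matrix or 17 nerve and glia genes was called. The summed smooth muscle level was 5640 to 6680 CPM in COL and 5860 to 9930 in GF, overlapping, and the summed adipose level 581 to 1520 and 653 to 2690 CPM, also overlapping.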
